A study of Drosophila melanogaster with 4 samples.

Results

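The wide clusters described here are the regions of significant enrichment of H3K9acS10P that measured at least 6000 bp on the autosomal arms 2L, 3L and 3R in the authors' list that combines both replicates. They number 440 of the 5442 clusters on these arms and of the 8976 clusters in that list as a whole. Width in the combined list chose them, so their widths, and the scores that come from the same libraries, are given as a description with no test. The mark was mapped by chromatin immunoprecipitation and sequencing (ChIP-seq) in head nuclei of adult Drosophila melanogaster of the wild-type strain Oregon-R (Oregon-R-modENCODE), labelled as mixed adult, with no treatment named and the antibody labelled as a new lot. There were 2 ChIP samples (replicates 1 and 2) and 2 input samples, 1 for each ChIP sample, all from this one genotype and stage. Whether the replicates are separate collections of heads is not stated, and differences between them may then be only technical. Whole heads hold many cell types, and fewer cells with the mark cannot be told apart from less of it per cell. Positions are on FlyBase r5, 1-based with both ends included, and genes are not given, since no annotation of that release was used. The read depth of the libraries is unknown, and each cluster's score is the authors' own value, with no scale stated.

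H3K9acS10P is a form of histone H3 that carries an acetyl group on lysine K9 and a phosphate on the neighbouring serine S10. Acetylation of this lysine is known from the promoters and early transcribed parts of active genes. In flies the kinase JIL-1 phosphorylates the serine in interphase, on autosomes as well as on the male X, where the kinase is more abundant. A wide cluster in a list of calls can hold a long continuous signal or several short ones that were called together.

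The wide clusters were few but took up a large part of the enriched sequence. They made up 8.09% of the clusters on the 3 arms and 22.4% of the enriched base pairs, 3.68 Mb in all. Arm 3R held 191 of them (6.84 per Mb), 2L held 132 (5.74 per Mb) and 3L held 117 (4.77 per Mb). They covered 5.75% of 3R, 4.76% of 2L and 3.98% of 3L. The same width rule took 309 clusters on X, or 13.8 per Mb and 14.7% of the arm, so wide clusters were sparser on 2L, 3L and 3R than on X. Autosomal sequence outside these 3 arms was not described. The wide clusters of the 3 arms were also narrower, with a median of 7531 bp and a maximum of 24057 bp, against 9085 bp and 51103 bp on X.

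Most of the wide clusters, 266 of 440, were under 8000 bp wide. Their quartiles were at 6635 and 9250 bp, against 1539 and 3324 bp for the narrower clusters of the same arms. There were 174 of at least 8000 bp (39.5%), 81 of at least 10000 bp (18.4%), 14 of at least 15000 bp and 2 of at least 20000 bp. The median width differed little between the arms, at 7378 bp on 2L, 7795 bp on 3L and 7451 bp on 3R, but 8 of the 14 clusters of at least 15000 bp were on 3R, 5 were on 2L and 1 was on 3L. At the limit itself, the 3 narrowest members measured 6003 bp (2L:19441002-19447004, score 1.01), 6007 bp (2L:14049748-14055754, score 0.55) and 6011 bp (3R:18405798-18411808, score 0.83). Just outside it were clusters of 5999 bp (3R:12865534-12871532, score 1.07), 5995 bp (3L:222900-228894, score 1.19) and 5991 bp (3L:1018526-1024516, score 0.57). The limit thus separates clusters of nearly the same width and of overlapping scores.

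**Figure D1:**
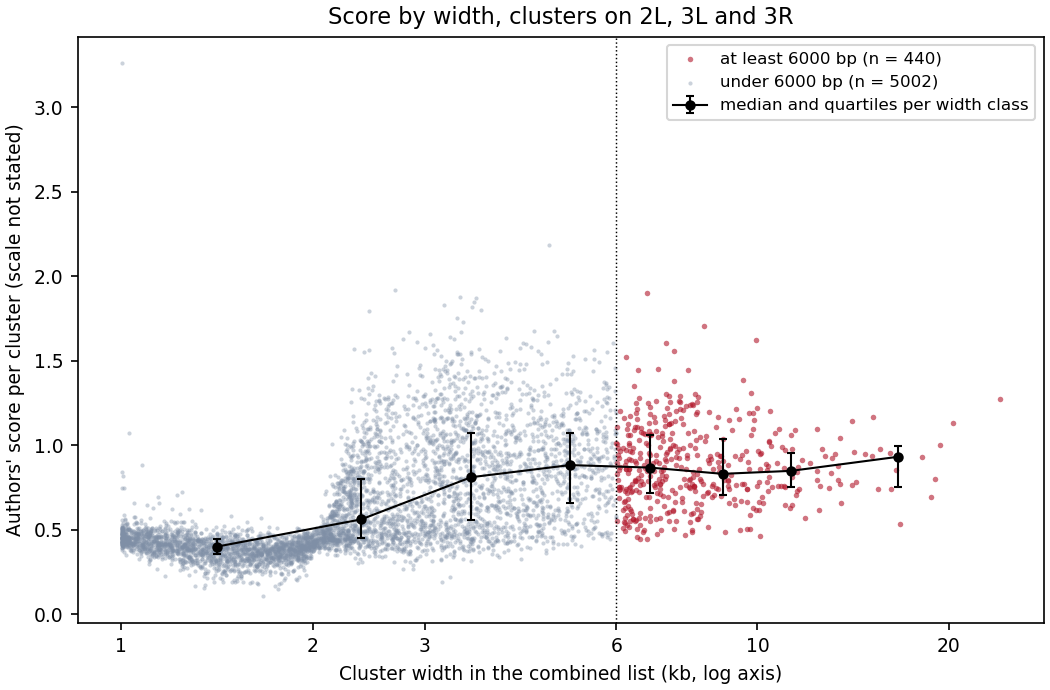
Width in the combined list (kb, log axis) against the authors' score for the 440 clusters of at least 6000 bp (red) and the 5002 narrower ones (grey) on 2L, 3L and 3R; black points are the median and the bars the quartiles of each width class. The median score climbs to 0.88 in the class from 4500 to under 6000 bp and stays between 0.83 and 0.93 in the wider classes.

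Among the wide clusters the score did not follow the width, and this was already so from 3000 bp up. Across the 440 wide clusters Spearman's rho between width and score was 0.036, against 0.67 across the 5002 narrower ones; clusters of one list share libraries and are not independent replicates, so neither value has a p. On the single arms rho was 0.099 (2L, n = 132), -0.041 (3L, n = 117) and 0.054 (3R, n = 191), and for wide clusters on X it was 0.15 (n = 309). In the neighbouring narrower classes rho was 0.010 from 3000 to under 4500 bp (n = 1099) and 0.090 from 4500 to under 6000 bp (n = 495). It was 0.33 from 2000 to under 3000 bp (n = 1367) but -0.38 under 2000 bp (n = 2041), so score did not rise steadily with width among the narrower clusters. The median score was 0.87 from 6000 to under 8000 bp, 0.83 from 8000 to under 10000 bp, 0.85 from 10000 to under 15000 bp and 0.93 for the 14 clusters of 15000 bp or more. In the narrower classes it was 0.40 under 2000 bp, 0.56 from 2000 to under 3000 bp, 0.81 from 3000 to under 4500 bp and 0.88 from 4500 to under 6000 bp. The gain in median score from class to class therefore lay mostly below 4500 bp, as the plot of score by width shows.

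The scores of the wide clusters were high in the middle and moderate at the top. Their median was 0.86 (quartiles 0.73 and 1.03), against 0.48 (0.41 and 0.79) for the narrower clusters, 0.88 (0.66 and 1.07) for the clusters from 4500 to under 6000 bp alone and 1.09 (0.91 and 1.23) for wide clusters on X. A score of at least 1 was reached by 121 wide clusters (27.5%) and by 686 narrower ones (13.7%). A score of at least 1.5 was reached by 6 wide clusters (1.36%) and by 57 narrower ones (1.14%). Of the 50 highest-scoring clusters on the 3 arms 5 were wide, which is close to the wide clusters' 8.09% of all clusters. The highest score among the wide clusters was 1.90 and among the narrower ones 3.26. That 3.26 belongs to a cluster under 2000 bp and has no match in the replicates. No replicate cluster overlapping a cluster of that class scored above 0.89 in replicate 1 or 1.12 in replicate 2. From 2000 to under 6000 bp the highest combined score was 2.18.

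The 5 highest-scoring wide clusters were not the widest. The first, 2L:22426594-22433294, measured 6701 bp and scored 1.90 in the combined list. Replicate 1 held 1 cluster of 6709 bp there with a score of 1.96, and replicate 2 held 1 of 6249 bp with a score of 1.90. It is the wide cluster of 2L nearest the centromere, and 1203861 bp without another wide cluster separate it from the one before. The next were 3L:22062846-22071096 (8251 bp, score 1.71), 3R:27042524-27052488 (9965 bp, score 1.62), 2L:865890-873066 (7177 bp, score 1.60) and 3R:25867140-25874546 (7407 bp, score 1.56). The first 3 of the 5 were 1 cluster in each replicate, covered to 93.3% or more. The cluster at 2L:865890-873066 was covered to 100.0% in replicate 1 (score 1.55) but to 57.2% in replicate 2, by 1 cluster of 4105 bp with a score of 2.17. The cluster at 3R:25867140-25874546 was 1 cluster of 6961 bp in replicate 2 (score 1.64) and 2 in replicate 1, with 184 bp between them and a highest score of 2.16. At both of these sites the shorter call had the higher score.

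The wide clusters were found in both replicates with 1 exception. Of the 440, 439 overlapped a cluster in replicate 1 and in replicate 2 by at least 1 bp (99.8%, exact 95% interval 98.7 to 100.0%). Among all clusters on the 3 arms the share was 55.6%, and among the narrower ones it was 51.8%. A wide cluster meets an overlap of 1 bp more easily, and in the classes from 3000 to under 4500 bp and from 4500 to under 6000 bp the share was already 90.6% and 96.4%. In replicate 1, 0 of 440 were missed, which allows a share of up to 0.682%; such limits and the intervals cover counting error only. The exception was 2L:16690056-16696590 (6535 bp). It had the lowest score of all wide clusters, 0.44, and was 2 clusters in replicate 1, covered to 54.4% with 1499 bp between the pieces, and was not called in replicate 2.

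A wide cluster was often not 1 unbroken cluster in the replicates. Exactly 1 cluster in each replicate overlapped 178 of the 440 (40.5%, exact 95% interval 35.8 to 45.2%), where the share over all clusters on the arms was 47.7%. In 122 (27.7%, 23.6 to 32.2%) there were 2 or more clusters in each replicate, against 2.7% over all clusters on the arms. Another 77 were unbroken in replicate 1 and split in replicate 2, 62 were split in replicate 1 and unbroken in replicate 2, and 1 was split in replicate 1 and missed in replicate 2. By replicate, 58.0% were unbroken in replicate 1 and 54.5% in replicate 2. Of the 147 split in both over all clusters on the arms, 122 were the wide ones themselves. Among clusters found in both replicates, the wide ones were unbroken in both in 40.5% of 439, against 93.3% of 2589 for the narrower ones. A narrower cluster has less room for 2 pieces, so this contrast partly follows from the choice by width. Under 3000 bp no cluster was split in both. From 4500 to under 6000 bp 72.1% of 495 were unbroken in both and 4.65% were split in both. The share unbroken in both fell with width among the wide clusters: it was 53.4% from 6000 to under 8000 bp, 28.0% from 8000 to under 10000 bp, 11.9% from 10000 to under 15000 bp and 2 of 14 above that. On X 107 of 309 wide clusters were unbroken in both (34.6%) and 119 were split in both (38.5%).

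**Figure D2:**
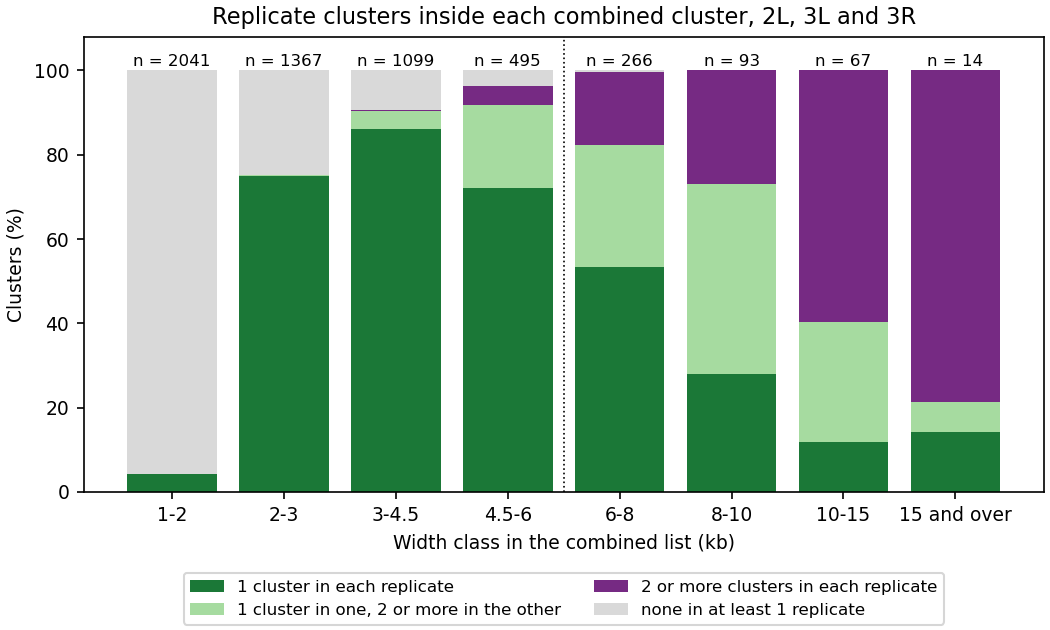
Share of combined clusters on 2L, 3L and 3R (%) by width class (kb) with 1 cluster in each replicate (dark green), 1 in one and 2 or more in the other (light green), 2 or more in each (purple) or none in at least 1 replicate (grey); the dotted line marks 6000 bp. Clusters with 2 or more in each replicate make up 17.3% from 6000 to under 8000 bp and 59.7% from 10000 to under 15000 bp.

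The number of pieces was small. In replicate 1, 255 wide clusters had 1 piece, 154 had 2, 27 had 3 and 4 had 4. In replicate 2, 240 had 1 piece, 163 had 2, 29 had 3, 6 had 4 and 1 had 5. The breaks were mostly short. The 220 gaps inside wide clusters in replicate 1 had a median of 390 bp (quartiles 135 and 1059 bp), and the 243 in replicate 2 had a median of 402 bp (149 and 981 bp). They ran from 1 to 4524 bp in replicate 1 and from 0 to 4531 bp in replicate 2. Calls with 0 bp between them thus also count as split. Gaps under 1000 bp made up 73.6% in replicate 1 and 75.7% in replicate 2. When replicate clusters within 1000 bp of each other were joined first, 79.5% of the wide clusters were unbroken in both replicates.

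Some breaks fell at the same place in both replicates. Of the 220 gaps in replicate 1, 99 (45.0%) overlapped a gap of replicate 2, and of the 243 in replicate 2, 97 (39.9%) overlapped a gap of replicate 1. The overlapping gaps were longer, with a median of 684 bp among those of replicate 1 and 830 bp among those of replicate 2, against 213 bp and 254 bp for the gaps of one replicate alone. A longer gap meets the overlap rule more easily. Of the 122 wide clusters split in both replicates, 89 (73.0%, exact 95% interval 64.2 to 80.6%) had at least 1 such overlapping gap.

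A single replicate cluster does not always fill the wide cluster it lies in. In 119 of the 440 (27.0%, exact 95% interval 22.9 to 31.5%) each replicate had exactly 1 cluster and that cluster covered at least 80% of the width, the nearest to 1 unbroken stretch in all lists. These were 55 on 3R (28.8%), 35 on 2L (26.5%) and 29 on 3L (24.8%), with a median score of 1.06. On X the share was 22.0%, and in the class from 4500 to under 6000 bp on 2L, 3L and 3R it was 41.0%. Measured by width, 124 wide clusters (28.2%) held a replicate cluster of at least 6000 bp in both replicates, against 2.28% of all clusters on the arms, which follows from the choice by width. A further 130 (29.5%) did so in 1 replicate and 186 (42.3%) in neither. For these 186 the width of at least 6000 bp is a property of the combined list and not of either replicate list. The name of broad domains therefore fits a part of these clusters, and they are called wide clusters here.

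**Figure D3:**
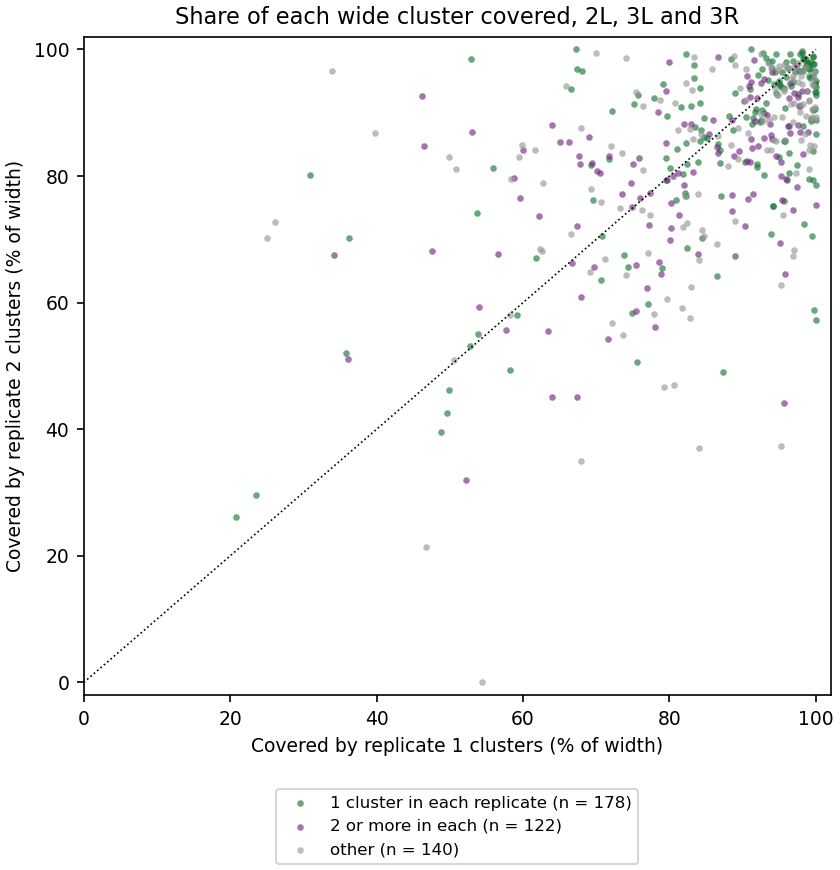
Share of the width of each of the 440 wide clusters covered by replicate 1 clusters (x axis, %) and by replicate 2 clusters (y axis, %), with colours for 1 cluster in each replicate, 2 or more in each, and other; the dotted line marks equal shares. The median is 89.9% in replicate 1 and 86.0% in replicate 2, and 126 clusters reach at least 90% in both.

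Most of the sequence in the wide clusters was called in both replicates. By base pairs 75.3% lay in clusters of both replicates, 16.3% in those of 1 and 8.37% in neither. In the narrower clusters these shares were 53.2%, 21.4% and 25.5%. The sets most like the wide clusters came close to them. The shares were 72.6%, 16.8% and 10.6% from 4500 to under 6000 bp on the same arms, and 76.6%, 16.5% and 6.88% in wide clusters on X. The share of a wide cluster covered averaged 84.3% in replicate 1 and 82.5% in replicate 2, or 83.4% ± 1.28 (SD, n = 2). Under 50% was covered in 19 wide clusters in replicate 1 and in 18 in replicate 2, 6 of them in both. The combined list tended to reach further out than the outermost replicate clusters, by a median of 123 bp at starts and 138 bp at ends for replicate 1, and of 213 bp and 170 bp for replicate 2. Start and end both lay within 500 bp of the outermost edges of replicate 1 in 241 wide clusters (54.8%) and of replicate 2 in 202 (46.0%).

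Score went with how fully a wide cluster was covered. Split into 4 groups of 110 by their combined score, the lowest group (0.44 to 0.73) was covered to a median of 72.8% in replicate 1 and 73.2% in replicate 2. In the highest group (1.03 to 1.90) the medians were 95.7% and 93.3%. Clusters unbroken in both replicates numbered 25 of 110 in the lowest group, 33 and 44 in the middle groups and 76 in the highest, while those split in both numbered 45, 35, 31 and 11. Width did not follow this order, with medians of 7311, 7930, 7557 and 7358 bp from the lowest group to the highest. The same held within classes of width: from 6000 to under 8000 bp the median score was 0.77 for the 46 clusters split in both and 0.94 for the 142 unbroken in both. From 8000 to under 10000 bp it was 0.72 (n = 25) for those split in both and 1.07 (n = 26) for those unbroken in both, and from 10000 bp up it was 0.81 (n = 51) and 0.97 (n = 10). The link of score and coverage was not particular to wide clusters. Spearman's rho between score and the covered share, averaged over the replicates, was 0.64 across them and 0.75 across the narrower clusters. Across wide clusters on X it was 0.51. All these values come from the same libraries, so no test was made.

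The replicates ranked the wide clusters alike in score, over all those found in both and over the unbroken ones. Broken ones were not ranked alone, and their highest pieces may lie at different places in the replicates. Across all 439 found in both, Spearman's rho between the highest replicate scores was 0.83, with a median difference of 0.085 without its sign, and rho for the widest piece was 0.53. Across the 178 unbroken wide clusters rho was 0.83 for score and 0.76 for width, as a description over clusters that share their libraries. The median difference in score, without its sign, was 0.080, and in width 412 bp. Replicate 1's cluster was the wider of the pair in 110 of the 178.

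The 10 widest clusters show both kinds of structure. The widest, 3R:5901944-5926000 (24057 bp, score 1.28), was unbroken in both, with 23963 bp in the list of replicate 1 and 23056 bp in that of replicate 2. The other 9 were split in both replicates. On 2L, 4964272 to 4984564 (20293 bp, score 1.13) was 3 clusters in replicate 1 and 4 in replicate 2, yet covered to 96.5% and 94.7%, with no gap over 202 bp in replicate 1 and 200 bp in replicate 2. The cluster at 2L:11986604-12005970 (19367 bp, score 1.00) was 2 clusters in replicate 1 and 3 in replicate 2, covered to 97.5% and 92.5%, and the one at 2L:4996052-5012586 (16535 bp, score 0.86) was 3 in each, covered to 97.0% and 93.2%. The fourth of 2L, 151902 to 168042 (16141 bp, score 0.95), was 2 clusters in replicate 1 and 3 in replicate 2, covered to 92.0% and 92.4%. All 4 on 2L were thus covered to at least 92.0% in both replicates, but the last 3 also had longer gaps, of up to 830 bp at 2L:11986604-12005970 (replicate 2), 810 bp at 2L:4996052-5012586 (replicate 2) and 1024 bp at 2L:151902-168042 (replicate 1).

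Of the 6 on 3R, 4 had a gap of over 1000 bp in at least 1 replicate. The cluster at 3R:23392108-23410274 (18167 bp, score 0.93) was 2 clusters in each replicate, with a gap of 1469 bp in the first replicate and 1865 bp in the second, and was covered to 80.3% and 75.8%. The one at 3R:22526538-22542748 (16211 bp, score 0.74) was 4 clusters in replicate 1 and 3 in replicate 2, covered to 67.9% and 60.8%, and no single piece exceeded 3658 bp in replicate 1 or 4539 bp in replicate 2. The least covered was 3R:27259708-27276454 (16747 bp, score 0.54), with 2 clusters in replicate 1 and 4 in replicate 2. They covered 34.2% and 67.5% of it. At the last of these 3 sites, as at 3R:22526538-22542748, each replicate held only clusters under 6000 bp, while the larger piece at 3R:23392108-23410274 was itself above that width (10061 bp in the first list, 8538 bp in the second).

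**Figure D4:**
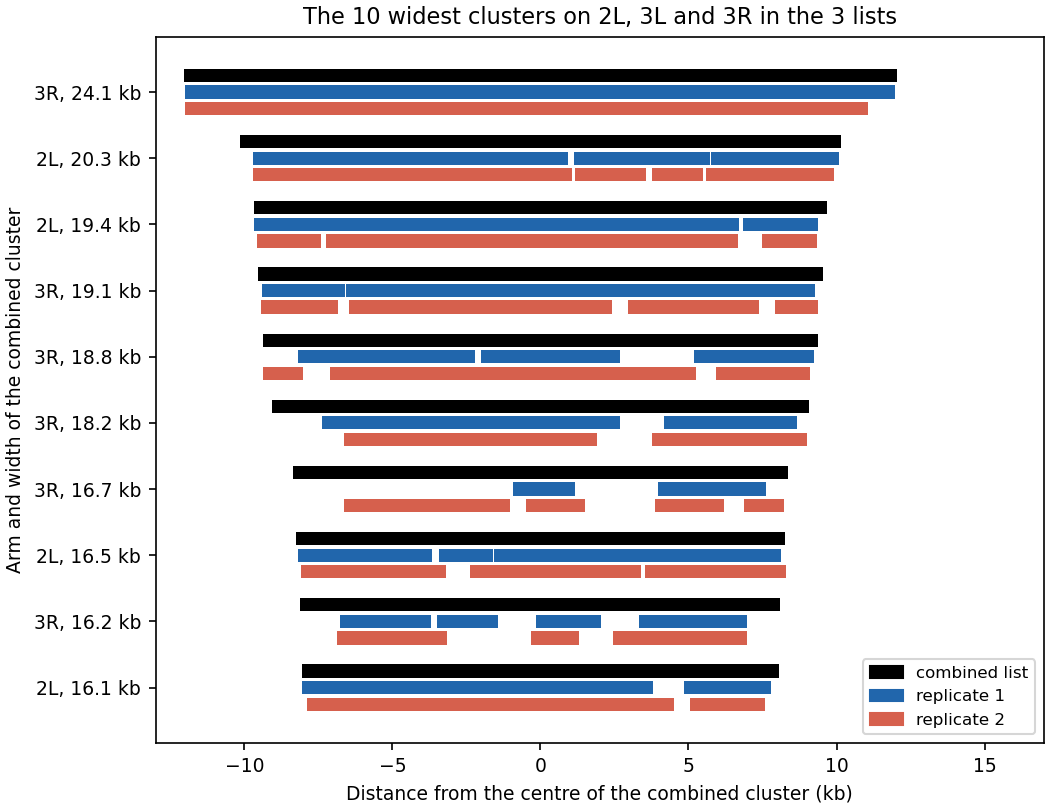
The 10 widest clusters on 2L, 3L and 3R, widest at the top, as bars by distance from the centre of the combined cluster (kb): the combined list in black, replicate 1 in blue and replicate 2 in red. The first, of 24.1 kb on 3R, is 1 bar in each replicate, and the other 9 are broken in both, though the shortest gaps do not show at this scale.

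A pair of the 10 widest were neighbours. The clusters at 3R:12040464-12059232 (18769 bp, score 0.70) and 3R:12059472-12078528 (19057 bp, score 0.80) lie 239 bp apart and together span 38.1 kb. The first was 3 clusters in each replicate, covered to 78.4% in replicate 1, where its longest gap was 2510 bp, and to 90.1% in replicate 2, where it was 898 bp. The second was 2 clusters in replicate 1, separated by 26 bp, and 5 in replicate 2, covered to 97.8% and 91.1%. This pair stands at the edge of the longest stretch of 3R without a wide cluster, 824637 bp up to 12903166, in which 47 narrower clusters lie.

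At the low end of the score, the wide clusters were partly empty. After the one missed in replicate 2, the lowest scores were 0.45 at 2L:20912694-20919406, 0.46 at 3R:22656200-22662670, 0.46 at 3R:22632638-22642730 and 0.47 at 3L:21889900-21897594. They were covered to between 20.7% and 67.4% in replicate 1 and to between 26.1% and 51.1% in replicate 2. The cluster at 3R:22656200-22662670 (6471 bp) counts as unbroken in both, but the replicate clusters inside it measured only 1341 and 1689 bp. A count of 1 cluster per replicate thus does not by itself mean a stretch that is enriched throughout.

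Clusters that were wide in 1 replicate were then followed in the other, which took no part in that choice. Replicate 1 had 203 clusters of at least 6000 bp on the 3 arms (63 on 2L, 60 on 3L and 80 on 3R), and replicate 2 had 178 (50, 46 and 82). All 203 of replicate 1 overlapped a cluster of replicate 2 and all 178 of replicate 2 overlapped one of replicate 1, which allows a missed share of up to 1.48% and 1.69%. For narrower clusters 491 of 3556 were missed in the first direction and 533 of 3668 in the second. Of the 203, 133 met exactly 1 cluster of replicate 2 (65.5%, exact 95% interval 58.5 to 72.0%) and 124 met one that was itself at least 6000 bp wide (61.1%). Of the 178, 140 met exactly 1 cluster of replicate 1 (78.7%, 71.9 to 84.4%) and 124 met one of at least 6000 bp (69.7%). Of the clusters narrower than 6000 bp, 83.1% and 82.8% met exactly 1 cluster of the other replicate, and 2.70% and 4.25% met one of at least 6000 bp.

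The width itself carried over only in part. The median of the 203 was 7233 bp in replicate 1, and the widest cluster that each met in replicate 2 had a median of 6333 bp. It was below the replicate 1 width in 161 of 203. In the other direction the medians were 6967 bp and 6843 bp, with 95 of 178 narrower. Choosing for width in one list by itself favours lower widths in the other, and how much of the difference this makes up was not tested. Rank agreement was 0.41 and 0.48 for width and 0.77 and 0.83 for score (Spearman's rho, a description over clusters). Among narrower clusters with a partner it was 0.69 and 0.68 for width and 0.81 and 0.81 for score. The choice by width cuts the range of width at 6000 bp. It may narrow that of score too, since Spearman's rho between width and score was 0.69 across all 5442 clusters on the arms in the combined list. How this acts on the rank agreement was not tested, so the values for wide clusters do not show that score agreed better than width. The clusters chosen in one replicate were covered to a median of 94.8% and 97.9% in the other.

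Neighbouring wide clusters were spaced irregularly. Over the 437 gaps between successive wide clusters of an arm the median was 79.5 kb, with quartiles of 22.3 and 217 kb. The median gap was 62.3 kb on 2L, 105 kb on 3L and 73.2 kb on 3R, against 19.1 kb on X. Of the gaps 66 (15.1%) were under 10 kb, and 32 were over 500 kb. On 3R 37 of 190 gaps were under 10 kb (19.5%), on 2L 20 of 131 (15.3%) and on 3L 9 of 116 (7.76%), where X had 129 of 308 (41.9%). A median of 7 narrower clusters lay between successive wide ones, and in 66 cases (15.1%) there was none.

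**Figure D5:**
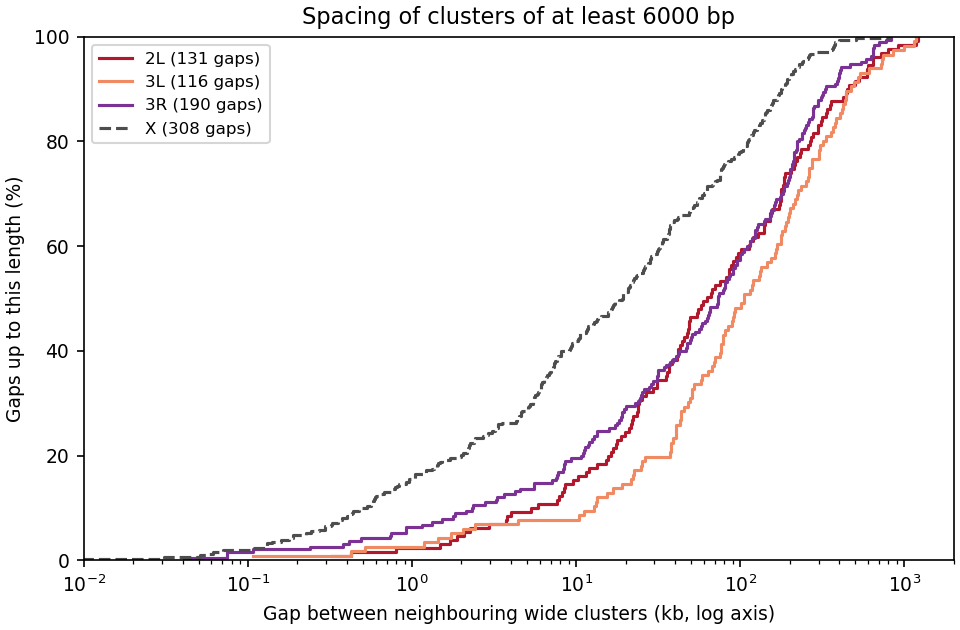
Cumulative share of gaps between successive clusters of at least 6000 bp (%) by gap length (kb, log axis) on 2L, 3L and 3R (solid lines) and on X (dashed). The medians are 62.3 kb on 2L, 105 kb on 3L and 73.2 kb on 3R, and 19.1 kb on X.

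In distance to clusters of any width, the surroundings of wide clusters resembled those of clusters from 4500 to under 6000 bp. The nearest cluster lay a median of 1315 bp from a wide cluster, 1265 bp from one of that class and 1656 bp from any narrower one. It was under 1000 bp away for 187 wide clusters (42.5%), where the share over all clusters on the arms was 37.5%; in the class from 4500 to under 6000 bp it was 44.6%, and for wide clusters on X it was 71.5%. Within 10 kb of the edges lay a mean of 2.42 other clusters for wide and 2.31 for narrower ones, although a wide cluster's own span is not counted in that distance. No other cluster lay within 10 kb for 19 wide clusters (4.32%) and for 509 narrower ones (10.2%). From 4500 to under 6000 bp this held for 24 clusters (4.85%).

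Some wide clusters stood in runs. With gaps under 5 kb, 88 of the 440 (20.0%) fell into 41 runs, of which 37 were pairs, 2 held 3 and 2 held 4. Arm 3R had 23 of the runs, 2L had 11 and 3L had 7. The 3 closest pairs were on 3R: 20872596 to 20878800 and 20878842 to 20885250 lay 41 bp apart, and 23740706 to 23749968 and 23750044 to 23757160 lay 75 bp apart, as did 24441918 to 24448114 and 24448190 to 24461724. Gaps this short are below the median gap inside wide clusters in either replicate. In the first pair, 1 cluster of 10500 bp in replicate 1 ran across the gap into both members. It counts, at its full width, as a piece of each of them.

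Both runs of 4 had low scores. The run at 3R:2218074-2253054 spanned 35.0 kb and was covered to 87.9% by wide clusters of 6.23, 8.86, 6.77 and 8.88 kb, with scores between 0.49 and 0.80. The run at 3L:21874672-21908754 spanned 34.1 kb, was covered to 91.2%, and had scores between 0.47 and 0.67. Of these 8 clusters only the first on 3L was unbroken in both replicates. Both runs of 3 reached higher scores. The clusters at 3R:19724426-19758442 (34.0 kb) had scores between 0.73 and 1.09, and those at 2L:10418724-10440824 (22.1 kb) between 0.88 and 1.00. The first range overlapped that of the 3R run of 4. Its clusters of 15477 and 11537 bp scored 0.74 and 0.73, below the 0.80 reached there.

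Wide clusters were spread along the whole of each arm, from 124304 to 22433294 on 2L, from 121614 to 24026846 on 3L and from 103902 to 27640018 on 3R. In full windows of 1 Mb their number had a median of 5 and ran from 0 to 16, with a mean of 5.82 ± 2.88 (SD over 74 windows). Across the windows it went with the number of all clusters, with Spearman's rho = 0.52 (n = 74 windows that share libraries). The wide clusters are part of that number, so some of this agreement is built in. The telomeric side of the arms' midpoints held 241 of the 440 (54.8%, exact 95% interval 50.0 to 59.5%), against 54.0% of the narrower clusters, so the wide ones showed no other balance between the ends. The Mb nearest the telomere held 11 on 2L, 10 on 3L and 8 on 3R. The Mb nearest the centromere held 1 on 2L and 1 on 3L, where there were 22 and 8 clusters of any width, but 8 on 3R, where there were 83. The share of reads that map uniquely in these end regions is not known here. The longest stretch without a wide cluster on 3L, 1185481 bp from 22835074 to 24020556, held 23 narrower clusters.

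The densest window was on 3R from 5 to 6 Mb, with 16 wide clusters among 105 clusters and 155 kb of wide clusters in all; it was picked by its value. The 16 measured 6261 to 24057 bp (median 7920 bp) and scored 0.51 to 1.29 (median 0.95). In both replicates 9 were unbroken and 1 was split. Beside the widest cluster on the 3 arms it held 3R:5242842-5257626 (14785 bp, score 0.95), which was 1 cluster of 14162 bp in replicate 2 and 2 in replicate 1 with 124 bp between them. It also held 3R:5770370-5784540 (14171 bp, score 0.96), which was unbroken in both (13270 bp in the list of replicate 1, 13896 bp in that of replicate 2).

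How many wide clusters there are depends on the width limit and on how neighbours are joined. There were 723 at a limit of 5000 bp and 174 at 8000 bp, and the share unbroken in both replicates was 50.5% and 20.7%. Joining combined clusters within 1000 bp of each other gave 791 of at least 6000 bp, of which 371 contained no wide cluster of the deposited list. The widest of the 791 was 3R:12040464-12083562, with 43.1 kb from 3 deposited clusters, among them the neighbours described above.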

How the data were processed

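Enrichment lists of H3K9acS10P in fly head nuclei were analysed for 2 ChIP samples; the 2 inputs enter only through the authors' calls. Per the submitters' processing notes, alignment was by Bowtie 0.12.7. Per the file headers, positions are on FlyBase r5. The authors deposited 1 list of significantly enriched clusters per ChIP sample and 1 combined list, with a score for each cluster; the sources used here do not give how clusters were called, scored and combined. Depth was not analysed here, so the precision behind a single cluster is unknown.

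Clusters of at least 6000 bp on 2L, 3L and 3R of the combined list were overlapped (at least 1 bp) with each replicate list in Python 3.11.15 with pandas 2.3.3 and scipy 1.17.1. A cluster was called unbroken in a replicate when exactly 1 replicate cluster overlapped it and split when 2 or more did. The covered share counts base pairs inside replicate clusters, and a piece is given at its full width. Shares have exact (Clopper-Pearson) intervals at 95%. No p-values were computed, since the lists share the libraries that chose the members. Regions were named by rule: the 10 widest, the 5 highest and 5 lowest scores, the 3 nearest to 6000 bp on either side, the 3 with most pieces, those not in both replicates and the 3 closest pairs. Regions in runs, in the densest window, at the longest gaps and among joined clusters were picked by their values. The members and lists were chosen with earlier results of these data known. The gene table at hand is of another genome release, so genes and sequences were not used. The functions were tested on simulated data. Alternatives were other width limits, a score minimum, joining of neighbours, a stricter overlap and leaving out each replicate.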

Additional observations from a re-analysis of the deposited data

How the results depend on the processing

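With a limit of 5000 bp there were 723 wide clusters, 98.3% found and 50.5% unbroken in both replicates, with a median gap of 41798 bp between neighbours; with 8000 bp there were 174, 100% found and 20.7% unbroken in both, a median gap of 241925 bp and 59.8% on the telomeric side of the arms' midpoints. When clusters at or below their list's median score were left out, 72.3% were found and 56.6% unbroken in both replicates and 61.9% of the width was covered, as this filter also takes away replicate clusters. Joining combined clusters within 1000 bp gave 791, with a median gap of 38552 bp and a median score of 0.89, where the score of a joined cluster is the highest of its parts. Joining replicate clusters within 1000 bp raised the share unbroken in both to 79.5%. With 1 replicate left out, 99.8 to 100% were found, 54.5 to 58.0% were unbroken and 82.5 to 84.3% of the width was covered. The wide clusters stayed those of the combined list there, so the shares found and unbroken could only stay equal or rise. The replicate lists themselves held 178 to 203 wide clusters. The other alternatives moved a result by less than its interval or the spread between the replicates, or a count by less than 1.5 times. The width limits for the share on the telomeric side and for clusters followed in the other replicate were chosen after the data were seen. No paired analysis was possible because the only groups with common replicate numbers are ChIP and input, and the input has no list of its own in these files. With 2 replicates and no depth, the precision of a single break or edge cannot be given.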
